A study of Saccharomyces cerevisiae with 45 samples.

Results

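The genes described here are those of peroxisome biogenesis and peroxisomal fatty acid oxidation in budding yeast. They were chosen by name: every gene whose symbol in the probe annotation is PEX followed by a number, plus POX1, FOX2, POT1, FAA2, ECI1, DCI1, SPS19, IDP3, PXA1, PXA2 and ANT1. The rule found 36 of the 5449 genes on the array, 25 PEX genes and 11 fatty acid oxidation genes, each with 1 probe set.

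Peroxisomes are small organelles with a single membrane, and in yeast they are the only site of fatty acid beta-oxidation. Peroxins, the products of PEX genes, make them: receptors bring folded enzymes from the cytosol to a docking complex, a RING ubiquitin ligase and an AAA ATPase recycle the receptors, and a further group sets the number and size of the organelles. The oxidation enzymes are known for being repressed by glucose and induced by oleate, the latter through the activators Oaf1, Pip2 and Adr1.

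Heat shock was followed over time in wild type cells of the strain labelled BY4147, on 3' expression arrays that read the end of each transcript. Every array, the controls included, came from cells of mating type a carrying his3D1, leu2D0, met15D0 and ura3D0, grown in YPD, a rich medium with glucose, at 25 °C and moved to a water bath. At 37 °C there were 3 arrays each at 1, 3, 5, 7, 10, 15 and 40 min, with 3 arrays of their own batch at 25 °C, and 3 arrays at 80 min from another batch that had no control. At 42 °C there were 2 arrays each at 3, 5, 10 and 40 min and 2 arrays of their batch at 25 °C, and at 46 °C 2 arrays each at 10 and 30 min, with no control in their batch. The labels do not say that replicates were separate cultures, so p-values measure the spread between these arrays only. The number of arrays limits the precision.

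Values are log2 intensities normalised by the authors with RMA, and arrays of a group correlated at r = 0.991 to 0.999. The 4 arrays labelled 42 °C 1 and 80 min were left out. The markers of mating type a lay at medians of 11.35 to 13.45, and of 4 genes of the other mating type MF(ALPHA)1 lay at 4.47, STE3 at 5.71, MF(ALPHA)2 at 6.59 and SAG1 at 8.82, the last 3 above the highest floor given below. LEU2, MET17 and URA3 had medians of 4.61 to 5.44, near the level of probe sets without a target, whereas HIS3 lay between 10.27 and 12.38. The probe sets of LEU2, MET17 and URA3 helped to set that level, so their nearness to it does not check the genotype. That level, the floor used below, was 5.44 for the 37 °C arrays, 5.66 for the 42 °C arrays and 4.59 for the 46 °C arrays. POX1 was below it in 12 of the 16 groups, PEX18 in 5 and POT1 in 1, and the other 33 genes were above it in all groups. A gene is called here when its log2 change is 1 or more in size, that is 2-fold, and its adjusted p from limma is below 0.05.

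At 37 °C the number of peroxisomal genes that rose was highest at 15 min, with 13 of 36. At 1 min limma called 0 of 36, against 0.239% of all genes called in either direction, with 5 higher and 4 lower at an unadjusted p under 0.05. At 3 min it again called 0, against 3.25%, with 8 higher and 10 lower at that p. Here and below, genes at an unadjusted p under 0.05 were not counted over all genes. The percentages of all genes refer to calls only and cannot be set against those counts. PEX29 alone rose at 5 min (5.6% of all genes were higher, 5.95% lower), and 3 genes rose at 7 min (7.87% and 8.15%). At 10 min 7 rose (12% and 11.9%), at 15 min 13 rose (15.3% and 14.3%), at 40 min 2 rose (7.08% and 7.21%) and at 80 min 2 rose (5.65% and 2.31%). None fell by limma at any 37 °C time, although 4 to 10 of them were lower at an unadjusted p under 0.05 at each of the 8 times. At 15 min the median change was 0.65 over the 36 genes and 0.06 over all genes, and 19 of the 36 had their highest 37 °C mean at that time.

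At 42 °C the count was highest at 40 min, the last time used. At 3 min limma called 0 of 36 against 9.03% of all genes in either direction, with 15 higher and 8 lower at an unadjusted p under 0.05. PXA1 alone rose at 5 min (8.48% of all genes were higher, 6.83% lower). At 10 min 6 rose and 1 fell, against 13.1% and 12.5% of all genes, and at 40 min 10 rose and 2 fell, against 23.3% and 22.4%. The share that rose at 40 min was therefore near that of all genes, and the median change was 0.30 against 0.01. In all, 14 genes rose at some 37 °C time and 10 at some 42 °C time, 7 of them at both, and 16 were called at neither temperature. Totals of this kind were not made over all genes, so no share of all genes can be set beside them. In the 64 calls between groups of arrays, each against 25 °C arrays or at 37 °C 40 against 15 min, the arrays of the groups compared did not overlap. Overlap was not counted over all genes, so its absence adds no support beyond the calls themselves.

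**Figure D1:**
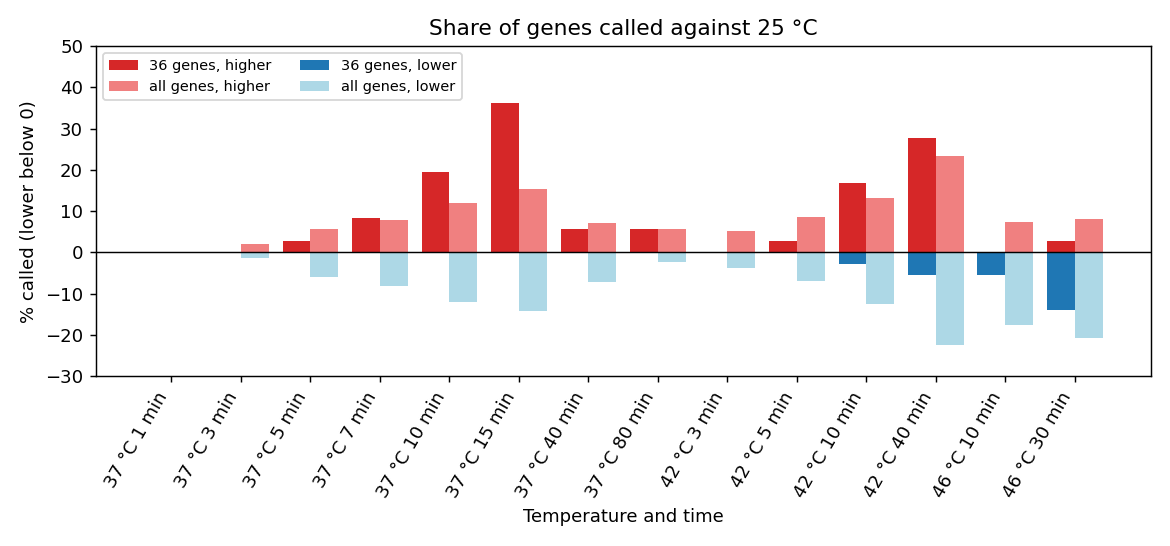
Percent of genes called against 25 °C at each temperature and time, higher above 0 and lower below 0, for the 36 peroxisomal genes (dark bars) and all 5449 genes (light bars). The share of peroxisomal genes that rose stood above that of all genes at 37 °C 10 and 15 min, with 7 and 13 of 36.

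The 25 PEX genes and the 11 oxidation genes had different counts at the 37 °C peak. At 15 min, where 15.3% of all genes were higher, 8 of 11 oxidation genes rose, with a median change of 1.18. Of the 25 PEX genes 5 rose, a share near that of all genes, with a median of 0.30. At 42 °C 40 min 5 of 11 oxidation genes and 5 of 25 PEX genes rose, with medians of 0.89 and 0.11. Of all genes, 23.3% were higher and 22.4% lower at that time. The share of PEX genes that rose there was not above that of all genes, and the 2 genes that fell were PEX genes. The difference between both groups of genes was not tested. Of the oxidation genes, FOX2, POT1, IDP3, PXA1 and PXA2 rose at both temperatures, POX1, ECI1, SPS19 and FAA2 were called at 37 °C and not at 42 °C, and DCI1 and ANT1 were called at neither. The map of changes shows these calls by time.

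**Figure D2:**
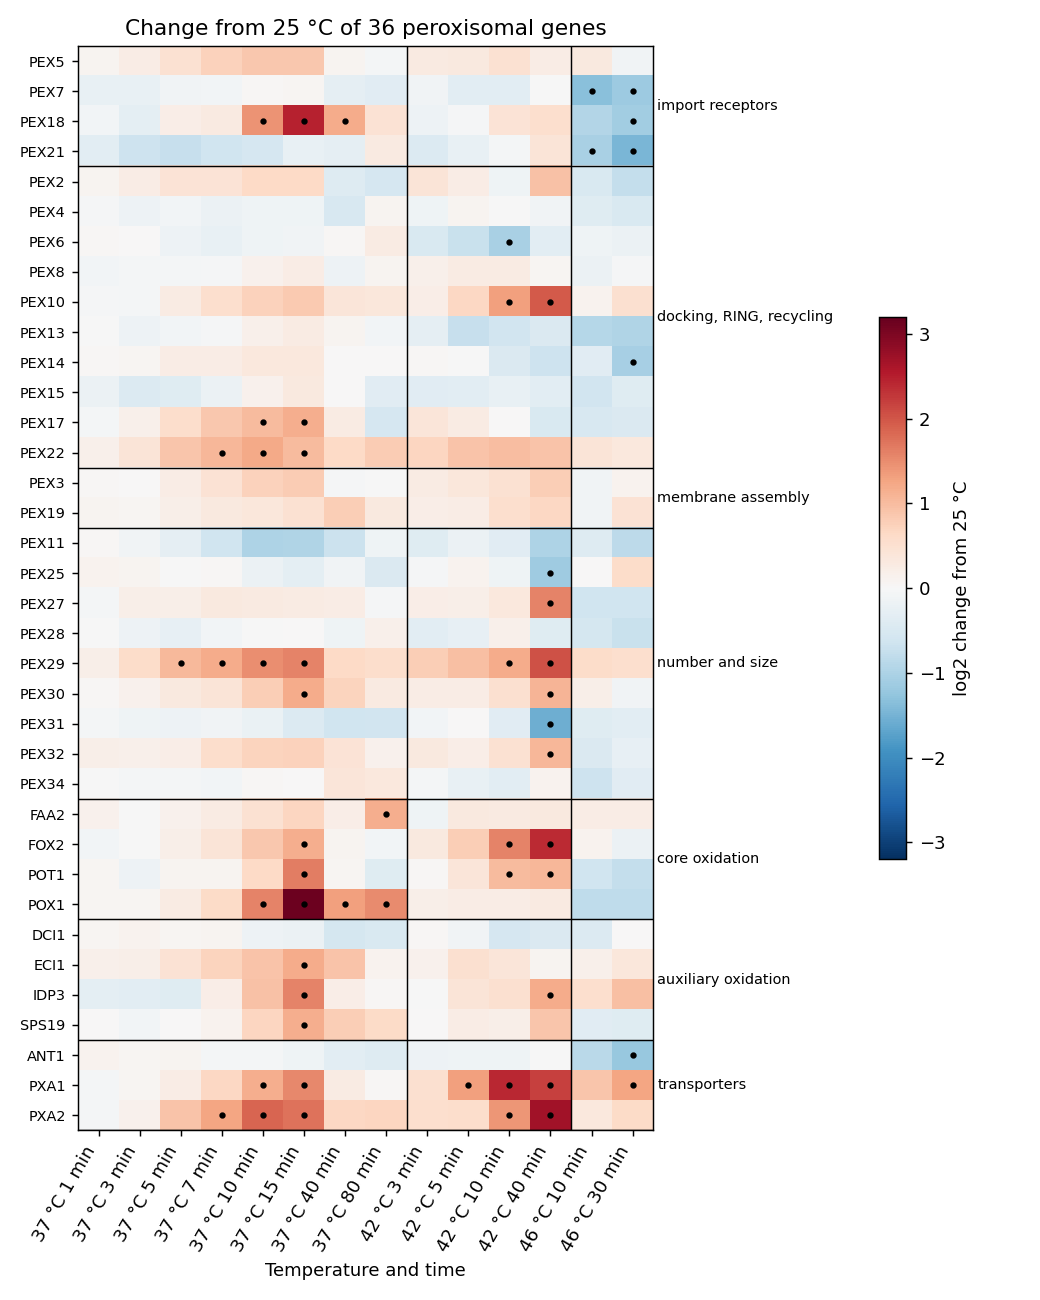
log2 change from 25 °C of each of the 36 genes (rows, by role) at each temperature and time (columns), red for higher and blue for lower; dots mark changes called by limma. At 37 °C 15 min 13 genes carry a dot, and at 42 °C 40 min 12 do.

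Of the 4 core oxidation genes, POX1, FOX2 and POT1 rose at 37 °C 15 min, where 15.3% of all genes were higher. FAA2 was higher there only below the 2-fold threshold. POX1 (YGL205W) encodes acyl-CoA oxidase, the first enzyme of the cycle. Its 3 control arrays read 4.67, 4.67 and 4.65, the arrays at 10 min 6.41, 6.24 and 6.14, and those at 15 min 7.79, 7.76 and 7.87. At 40 min they read 5.99, 6.05 and 5.88. All 15 min arrays were above all others of the 37 °C course, and the control lay below the floor. Since the control was not above the floor, the change is given as a bound: the 15 min mean of 7.81 ± 0.06 (SD, n = 3) was at least 5.18-fold, or 2.37 on the log2 scale, above the floor. The fitted change of 3.14 passed the test (adjusted p = 1.81e-26) but includes signal below the floor, so it is not ranked against other genes. Counted from the floor in the same way, the called rises at 10, 40 and 80 min were at least 1.78-fold, 1.45-fold and 1.68-fold.

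At 42 °C the POX1 means of all 4 times and of the control lay below the floor. The control arrays read 5.34 and 5.31, and the arrays at 40 min 5.65 and 5.56. No rise of POX1 above unspecific signal was therefore measured at 42 °C, and no fold is given.

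FOX2 (YKR009C), the bifunctional enzyme of the next steps, rose at both temperatures. At 37 °C the control arrays read 9.50, 9.44 and 9.57 and the 15 min arrays 10.68, 10.70 and 10.62, a change of 1.17 ± 0.05 (adjusted p = 7.49e-19). By 40 min they were at 9.60, 9.63 and 9.52, within 0.08 of the control mean. At 42 °C the control arrays read 7.94 and 8.05, the 10 min arrays 9.62 and 9.53 and the 40 min arrays 10.41 and 10.36. The change there was 1.58 ± 0.07 at 10 min and 2.39 ± 0.07 at 40 min (adjusted p = 1.23e-19 and 5.72e-25). The level reached at 42 °C did not exceed the 37 °C level at 15 min, and the 42 °C control was 1.51 lower than the 37 °C control, in sets of arrays that appear to have been normalised separately.

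POT1 (YIL160C) encodes the thiolase that ends each turn of the cycle. The 37 °C control arrays read 5.60, 5.75 and 5.72, and the 15 min arrays 7.31, 7.35 and 7.34, a change of 1.64 ± 0.08 (adjusted p = 9.59e-18). At 42 °C the control arrays read 5.91 and 5.82, the 10 min arrays 6.89 and 6.87 and the 40 min arrays 7.07 and 6.77. These rises, 1.02 ± 0.10 and 1.06 ± 0.10, sat at the threshold. The 10 min call was lost without control replicate 2 (0.97) and the 40 min call without its own replicate 1 (0.90), and quantile normalisation of all arrays together gave 0.98 and 0.85.

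FAA2 (YER015W), which activates medium-chain fatty acids, had a change of 0.68 ± 0.07 at 37 °C 15 min and was called only at 80 min. The control arrays read 7.62, 7.56 and 7.60 and the 80 min arrays 8.72, 8.77 and 8.75, a change of 1.15 ± 0.07 (adjusted p = 1.21e-15). POX1 was the other gene called there, with arrays at 6.10, 6.33 and 6.13. The 80 min arrays form a batch without a control, so batch and time cannot be told apart. Their ACT1 signal from 3' minus 5' probe sets, a sign of RNA integrity, was 0.92 against 0.52 in the control, and its part in the result was not tested. Quantile normalisation of all arrays lowered FAA2 to 0.99, and the control of the 42 °C batch lowered POX1 to 0.86, each below the threshold. Against that control 6 of the 36 genes were called at 80 min in place of 2.

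Among the auxiliary enzymes, which handle double bonds and reducing power, 3 of 4 rose at 37 °C 15 min, where 15.3% of all genes were higher. IDP3 (YNL009W), the peroxisomal isocitrate dehydrogenase that makes NADPH, read 7.18, 7.36 and 7.15 in the control, 7.05, 6.91 and 6.59 at 5 min and 8.80, 8.67 and 8.97 at 15 min. Its change was 1.58 ± 0.10 at 15 min (adjusted p = 5.61e-15), after lower values at 1 to 5 min that were not called. At 42 °C 40 min it read 8.42 and 8.55 against 7.33 and 7.25, a change of 1.20 ± 0.13 (adjusted p = 4.22e-10). Quantile normalisation of all arrays brought that value to 0.999, just under the threshold.

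ECI1 (YLR284C), an enoyl-CoA isomerase, changed by 1.18 ± 0.08 and SPS19 (YNL202W), a dienoyl-CoA reductase, by 1.16 ± 0.10 at 37 °C 15 min (adjusted p = 1.68e-14 and 1.5e-12). The ECI1 arrays read 9.78, 9.77 and 9.95 there against 8.66, 8.61 and 8.67. At 42 °C 40 min neither was called, with 0.10 ± 0.10 for ECI1 and 0.89 ± 0.12 for SPS19. DCI1, a relative of ECI1, was called at no time and lay at -0.18 ± 0.07 at 37 °C 15 min.

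PXA1 and PXA2 encode the partner subunits of the ABC transporter that carries long-chain acyl-CoA into the peroxisome, and both rose at both temperatures. PXA1 (YPL147W) read 8.34, 8.49 and 8.45 in the 37 °C control and 10.01, 9.88 and 10.00 at 15 min, a change of 1.54 ± 0.07 (adjusted p = 1.21e-19). In the 42 °C batch the control arrays read 7.21 and 7.22, the 5 min arrays 8.50 and 8.57, the 10 min arrays 9.68 and 9.58 and the 40 min arrays 9.36 and 9.46. PXA1 was the first of the 36 to rise at 42 °C, by 1.32 ± 0.08 at 5 min (adjusted p = 5.33e-15), and reached 2.41 ± 0.08 at 10 min. Its highest 42 °C level stayed below its 15 min level at 37 °C, from a control 1.21 lower.

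PXA2 (YKL188C) rose from 7 min at 37 °C and was highest at 10 min. The control arrays read 7.70, 7.70 and 7.73, the 7 min arrays 8.80, 9.07 and 9.07, and the 10 min arrays 9.56, 9.55 and 9.59. The change at 10 min was 1.86 ± 0.09 (adjusted p = 2.75e-18). At 42 °C the control arrays read 7.14 and 7.34, the 10 min arrays 8.83 and 8.48 and the 40 min arrays 9.80 and 10.04. The change of 2.68 ± 0.11 at 40 min (adjusted p = 1.87e-20) was the largest of the 36 genes at 42 °C. ANT1, the carrier that brings ATP into the peroxisome, was called at no time at 37 or 42 °C and lay at -0.13 ± 0.05 at 37 °C 15 min.

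**Figure D3:**
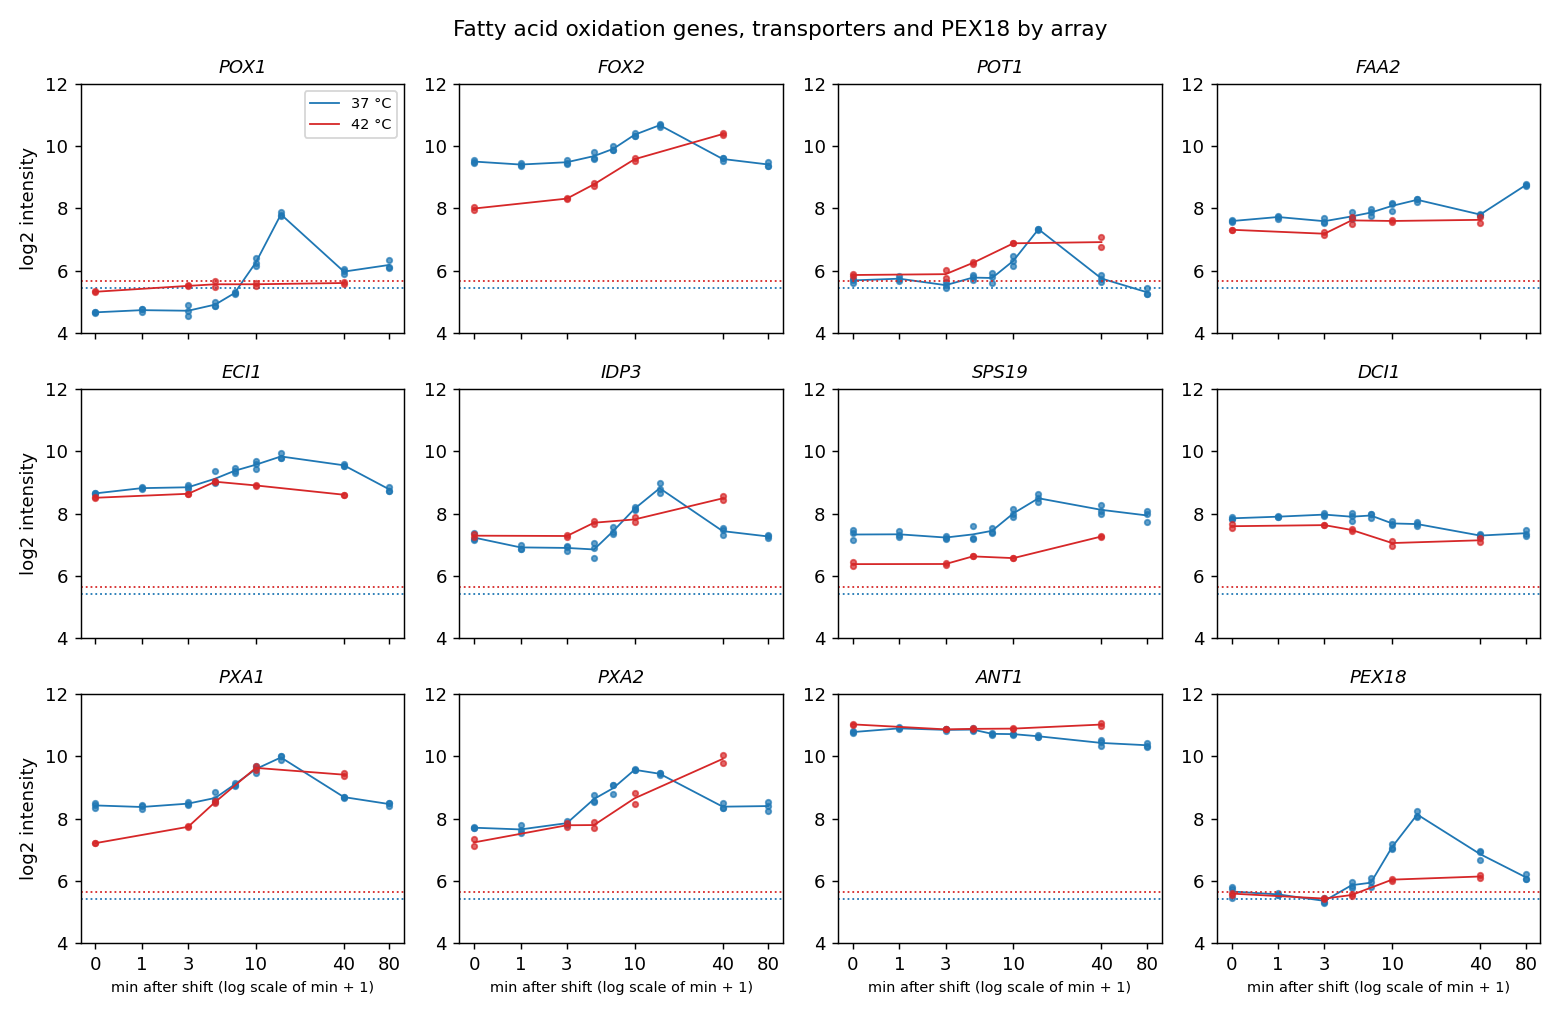
log2 intensity of each array (points) and group means (lines) against min after the shift, on a log scale of min + 1, for the 11 oxidation genes and PEX18 at 37 °C (blue) and 42 °C (red); time 0 is the 25 °C control of the batch and dotted lines are the floors. POX1, POT1 and IDP3 peak at 15 min at 37 °C, FOX2 and PXA2 climb to 40 min at 42 °C, and POX1 stays near the floor at 42 °C.

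Of the 4 import receptor genes, only PEX18 rose, at 37 °C 10, 15 and 40 min, where 12%, 15.3% and 7.08% of all genes were higher. PEX5 and PEX7 encode the receptors of the main and the second peroxisomal targeting signal, and PEX18 and PEX21 encode partner proteins that Pex7 needs for import. PEX18 (YHR160C) read 5.44, 5.74 and 5.81 in the 37 °C control, 7.06, 7.04 and 7.18 at 10 min and 8.24, 8.09 and 8.07 at 15 min. At 40 min it was still at 6.98, 6.94 and 6.67. The changes were 1.43, 2.47 and 1.20, each with an SE of 0.08 (adjusted p = 1.67e-16, 6.28e-23 and 3.17e-14). Arrays at these times did not overlap those of the control, whose mean of 5.67 was above the floor. At 42 °C 40 min PEX18 was at 6.09 and 6.20 and was not called. The 42 °C control arrays of PEX18 read 5.56 and 5.63, with a mean of 5.60 below the floor of 5.66. Its partner PEX21 was not called at 37 or 42 °C, with -0.23 ± 0.10 at 37 °C 15 min, while PEX5 lay at 0.86 ± 0.06 and PEX7 at 0.07 ± 0.04.

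The 10 genes of docking, ubiquitin ligase and receptor recycling had 2 rises at 37 °C 15 min, PEX17 and PEX22. That share is near the 15.3% of all genes that were higher. PEX22 (YAL055W), which anchors the ubiquitin-conjugating enzyme Pex4 to the membrane, read 9.66, 9.77 and 9.82 in the control and 10.95, 10.94 and 10.97 at 10 min. Its change was 1.07 ± 0.07 at 7 min, 1.20 ± 0.07 at 10 min and 1.01 ± 0.07 at 15 min (adjusted p = 2.83e-14, 8.44e-16 and 5.62e-14). PEX4 itself lay at -0.14 ± 0.07 at 15 min. The PEX22 call at 15 min was lost without control replicate 1 (0.96) or without 15 min replicate 2 (0.99) or 3 (0.9998). At 42 °C 10 and 40 min PEX22 lay at 0.98 ± 0.09 and 0.91 ± 0.09, just under the threshold.

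PEX17 (YNL214W), a subunit of the docking complex, rose at 37 °C alone among its partners PEX13 and PEX14. The control arrays read 8.16, 8.28 and 8.19 and the 15 min arrays 9.37, 9.38 and 9.35, a change of 1.16 ± 0.08 (adjusted p = 5.88e-14). The change at 10 min, 1.02 ± 0.08, fell under the threshold without control replicate 1 (0.99) or without 10 min replicate 2 (0.98) or 3 (0.998). PEX13 lay at 0.26 ± 0.06 and PEX14 at 0.34 ± 0.08 at 15 min. At 42 °C 40 min all 3 docking genes lay below the control without a call, PEX17 at 7.36 and 7.46 against 7.90 and 7.90.

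PEX10 (YDR265W), one of the RING ubiquitin ligase subunits, rose at 42 °C and was not called at 37 °C. It was higher at 37 °C 15 min below the 2-fold threshold, at 10.43, 10.48 and 10.46 against 9.62, 9.59 and 9.64. The 42 °C control arrays read 9.41 and 9.30, the 10 min arrays 10.70 and 10.62 and the 40 min arrays 11.25 and 11.38. The changes were 1.31 ± 0.07 and 1.96 ± 0.07 (adjusted p = 2.57e-17 and 1.74e-22). Its partner PEX2 lay at 0.94 ± 0.08 at 42 °C 40 min and was not called. PEX6 (YNL329C), an AAA ATPase that pulls receptors out of the membrane, fell at 42 °C 10 min, from 9.36 and 9.45 to 8.38 and 8.33, by 1.05 ± 0.07 (adjusted p = 2.12e-15). It was at 9.20 and 8.96 at 40 min. PEX8, which bridges the docking and RING complexes, and PEX15, which anchors Pex6, were called at no time at either temperature.

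PEX3 and PEX19, which insert proteins into the peroxisomal membrane, were not called at any time. At 37 °C 15 min they lay at 0.82 ± 0.06 and 0.49 ± 0.07, and at 42 °C 40 min at 0.80 ± 0.07 and 0.66 ± 0.08.

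Of the 9 genes of peroxisome number and size, 4 rose, 2 fell and 3 were not called at 42 °C 40 min, where 23.3% of all genes were higher and 22.4% lower. PEX28 to PEX32 encode membrane proteins that restrain number and size and sit in part at the endoplasmic reticulum. PEX29 (YDR479C) was the first of the 36 genes to rise at 37 °C. The 37 °C control arrays read 9.33, 9.36 and 9.38, the 5 min arrays 10.34, 10.39 and 10.43 and the 15 min arrays 10.98, 10.91 and 10.94. The change was 1.03 ± 0.05 at 5 min and 1.59 ± 0.05 at 15 min (adjusted p = 8.3e-19 and 1.43e-24). At 42 °C it read 9.04 and 9.13 in the control and 11.15 and 11.09 at 40 min, a change of 2.03 ± 0.06 (adjusted p = 3.04e-25).

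PEX30 (YLR324W) rose at the same late times as PEX29, and PEX31 (YGR004W), its paralog, fell. PEX30 read 9.82, 9.74 and 9.78 in the 37 °C control and 10.92, 11.06 and 10.93 at 15 min, a change of 1.19 ± 0.06, and it changed by 1.10 ± 0.07 at 42 °C 40 min (adjusted p = 4.47e-18 and 5.06e-15). PEX31 read 9.40 and 9.37 in the 42 °C control, 9.02 and 9.02 at 10 min and 7.80 and 7.87 at 40 min. Its fall of 1.55 ± 0.06 (adjusted p = 4.38e-22) was the largest called fall from 25 °C among the 36 genes at 37 or 42 °C, and the arrays were far apart. PEX32 (YBR168W) changed by 1.05 ± 0.10 at 42 °C 40 min (adjusted p = 8.55e-12). That call was lost without control replicate 2 (0.94) or without 40 min replicate 2 (0.98), and was 0.91 after quantile normalisation of all arrays. PEX28 was not called at 37 or 42 °C.

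PEX11, PEX25 and PEX27 encode related proteins that promote proliferation of peroxisomes. PEX27 (YOR193W) was flat at 37 °C, between -0.06 and 0.30 from the control, and rose at 42 °C 40 min, from 8.15 and 8.25 to 9.86 and 9.69, by 1.58 ± 0.08 (adjusted p = 4.03e-18). PEX25 (YPL112C) fell at that time, from 11.25 and 11.19 to 10.18 and 9.99, by 1.13 ± 0.08 (adjusted p = 8.7e-14). PEX11 (YOL147C) narrowly missed the threshold at both temperatures. It read 10.83, 10.83 and 10.85 in the 37 °C control and 9.96, 9.84 and 9.84 at 15 min, a difference of -0.96 ± 0.05, and lay at -0.98 ± 0.07 at 42 °C 40 min. The ACT1 3' minus 5' signal was 1.33 at 42 °C 40 min and 0.75 in its control, and its part in these results was not tested.

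**Figure D4:**
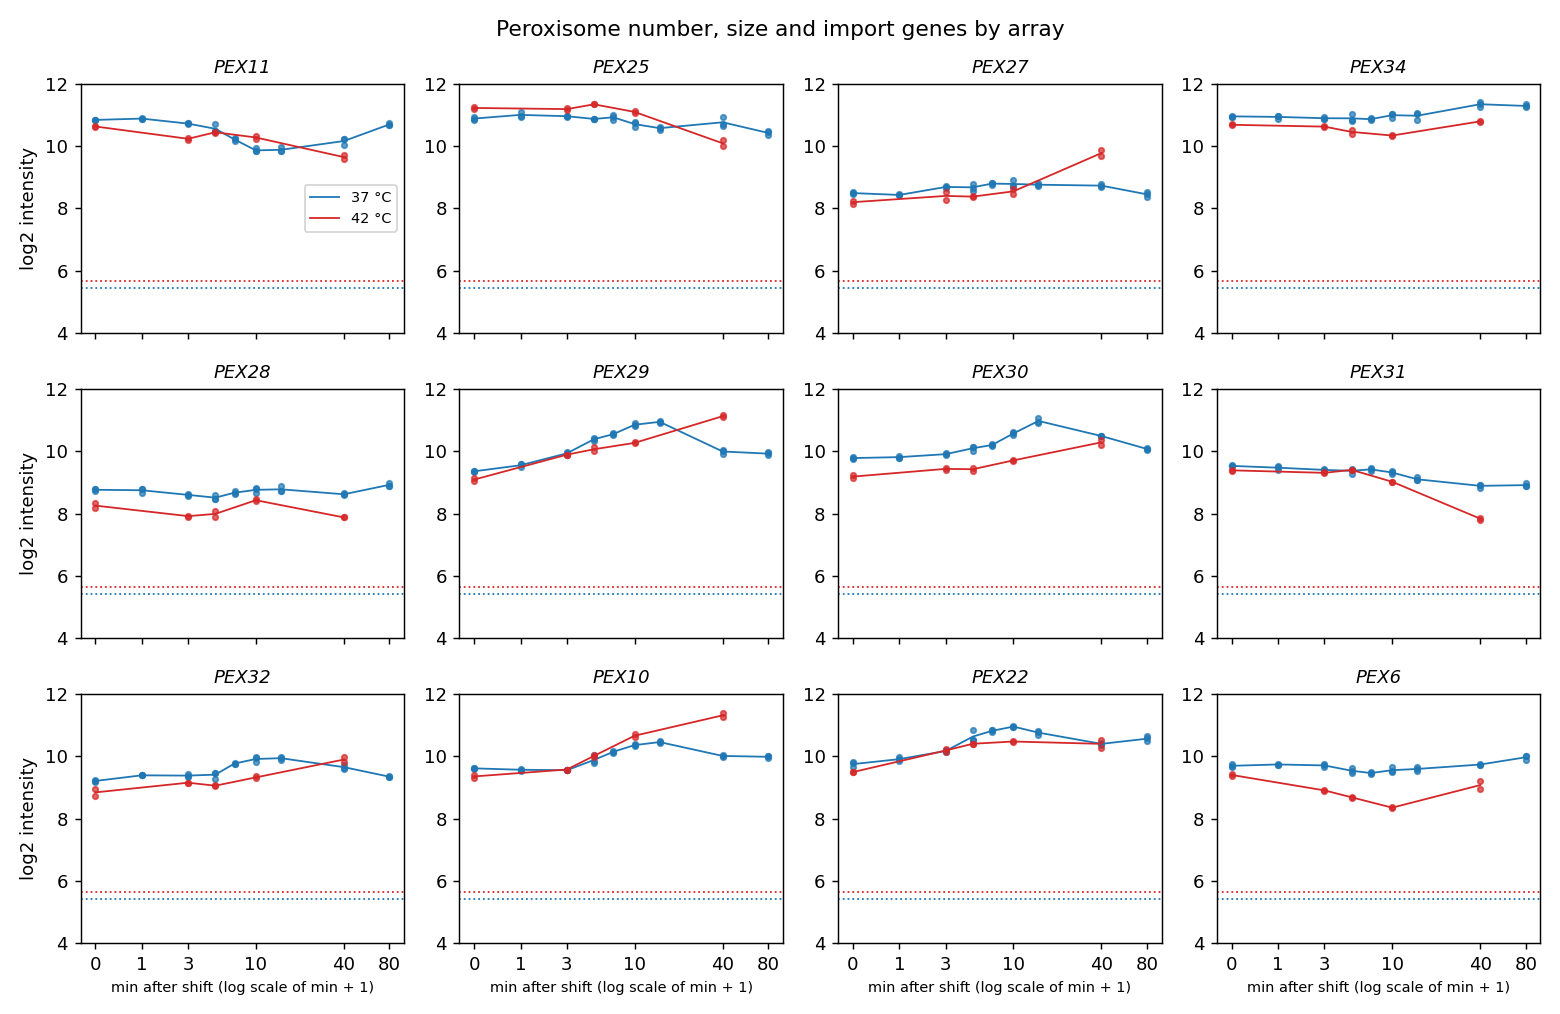
log2 intensity of each array (points) and group means (lines) against min after the shift, on a log scale of min + 1, for 12 PEX genes at 37 °C (blue) and 42 °C (red), with time 0 and the dotted floors as for the oxidation genes. At 42 °C 40 min PEX29, PEX27 and PEX10 are at their highest and PEX31 and PEX25 at their lowest, while the 37 °C lines of PEX29 and PEX10 turn down after 15 min.

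The return at 37 °C was uneven. From 15 to 40 min 8 of 36 genes fell and 0 rose, against 6.96% of all genes lower and 9.12% higher, and 5 were higher at an unadjusted p under 0.05. POX1 fell by 1.84, POT1 by 1.58, IDP3 by 1.37, PXA1 and PEX18 each by 1.27, FOX2 by 1.08, PXA2 by 1.06 and PEX2 by 1.04. Of the 15 min change, POT1 had lost 96.3%, FOX2 92.9%, IDP3 86.9% and PXA1 82.7% by 40 min. PEX18 had lost 51.5% and was still called, as was POX1, for which no percentage is given because its control lay below the floor. ECI1 had lost 24% and SPS19 32%, the least among the called oxidation genes.

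Whether the 42 °C response differed from the 37 °C response was tested at matched times, each change being taken from its own control. The controls themselves were not alike: 30 of the 36 genes were lower in the 42 °C control, with a median difference of -0.26 against 0.03 over all genes, and FOX2, PXA1, SPS19 and PXA2 were lower by 1.51, 1.21, 0.95 and 0.47. POX1 was below the floor in both. The controls differ in batch and appear to have been normalised separately, and the part of this offset in the differences below was not tested.

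At 3 min limma called no difference (2.66% of all genes in either direction), with 8 genes higher and 3 lower at an unadjusted p under 0.05. At 5 min PXA1 rose by 1.08 more at 42 °C (SE 0.11, adjusted p = 2.07e-09), against 2.92% of all genes higher and 0.44% lower. That call ended after quantile normalisation of all arrays (0.91) and, with the left-out arrays in the fit, at an adjusted p = 0.162. At 10 min 1 gene was higher and 2 lower, against 8.96% and 4.97% of all genes. PXA1 differed by 1.25 ± 0.11 and PEX17 by -1.01 ± 0.13 (adjusted p = 2e-11 and 1.04e-07). POX1 was the other gene called lower, but its means in both controls and at 42 °C 10 min were below the floor, so the size of its difference was not measured. Quantile normalisation lowered the PXA1 difference to 0.98. The PXA1 means at 42 and 37 °C were 8.54 and 8.67 at 5 min and 9.63 and 9.59 at 10 min. The PXA1 control means were 7.22 and 8.43, so the levels reached were close while the changes differed. The PEX17 difference was lost without 37 °C control replicate 1 (-0.99), 37 °C 10 min replicate 2 (-0.98) or 3 (-0.995) or 42 °C 10 min replicate 1 (-0.93).

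At 40 min the temperatures stood furthest apart, with 7 genes higher and 2 lower at 42 °C against 19.7% and 19.6% of all genes. The share of peroxisomal genes that was higher is close to that of all genes. FOX2 differed by 2.31 ± 0.09, PXA2 by 2.00 ± 0.14 and PXA1 by 1.93 ± 0.11 (adjusted p = 5.12e-21, 5.45e-14 and 8.78e-17). Their means at 42 and 37 °C were 10.38 and 9.58 for FOX2, 9.92 and 8.39 for PXA2, and 9.41 and 8.69 for PXA1. Among PEX genes, PEX10 differed by 1.56 ± 0.09, PEX29 by 1.40 ± 0.07, PEX2 by 1.35 ± 0.10 and PEX27 by 1.34 ± 0.10 (adjusted p = 1.47e-16, 1.46e-17, 7.98e-14 and 3.36e-13). None of these 7 genes was called at 37 °C 40 min, and all but PXA1 had their highest 42 °C mean at 40 min. PEX25 differed by -1.02 ± 0.11, and POX1 was the other gene called lower.

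Both of the last calls lay at the threshold. The fitted POX1 difference, -1.03, rests on control and 42 °C means below the floor, so its size was not measured, and its call was lost without 37 °C 40 min replicate 2 (-0.99) or 42 °C 40 min replicate 2 (-0.98) and after quantile normalisation (-0.93). The PEX25 difference was lost after quantile normalisation (-0.99) and without 37 °C control replicate 2 (-0.998), 37 °C 40 min replicate 1 (-0.93), 42 °C control replicate 1 (-0.98) or 42 °C 40 min replicate 2 (-0.92).

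**Figure D5:**
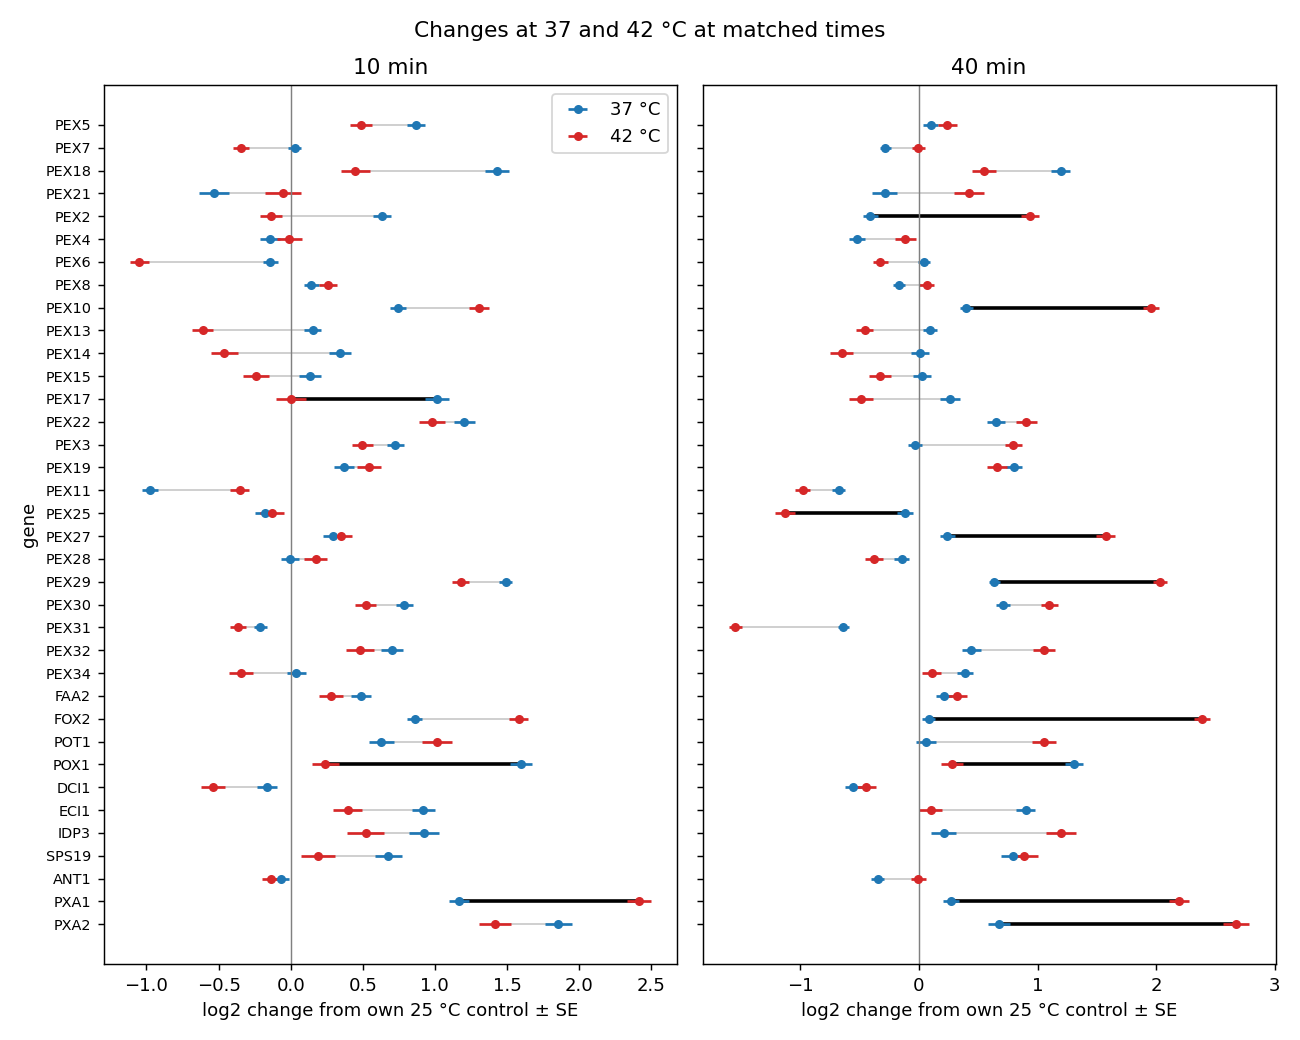
log2 change ± SE from the control of the same batch at 37 °C (blue) and 42 °C (red) for each of the 36 genes at 10 and 40 min; thick black lines join changes whose difference was called by limma. At 10 min 3 genes differed and at 40 min 9 did, FOX2, PXA2 and PXA1 by 1.93 to 2.31.

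At 46 °C no control shares the batch, and temperature and batch cannot be told apart. Against the mean of both controls the median of all genes was -0.39 at 10 min and -0.38 at 30 min, so the 46 °C values lie on a shifted scale. On it 0 of 36 rose and 2 fell at 10 min (7.47% of all genes higher, 17.6% lower), with 8 higher at an unadjusted p under 0.05. At 30 min 1 rose and 5 fell (8.02% and 20.8%). Quantile normalisation of all arrays brought the all-gene median to -0.10 and -0.09 and left 1 of 36 higher and 2 lower at 10 min and 2 higher and 1 lower at 30 min. Over all genes it moved the calls from 407 higher and 959 lower to 526 and 546 at 10 min, and from 437 and 1131 to 585 and 683 at 30 min.

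PEX7 and PEX21, partners in the second import route, were low at 46 °C. PEX7 (YDR142C) read 8.35 and 8.44 at 10 min and 8.62 and 8.57 at 30 min, against controls of 9.63 to 9.87. Its change at 10 min was -1.35 ± 0.05 (adjusted p = 2.94e-22), and -1.02 after quantile normalisation. At 30 min it was -1.15 ± 0.05, and -0.78 after that normalisation, which ended the call. PEX21 (YGR239C) read 7.09 and 7.06 at 10 min and 6.62 and 6.71 at 30 min, against controls of 7.88 to 8.39. The change was -1.05 ± 0.11 at 10 min and -1.47 ± 0.11 at 30 min (adjusted p = 1.89e-10 and 7.49e-14). The 30 min value stayed past the threshold after quantile normalisation (-1.58) and against either control, while the 10 min value was -0.89 against the 42 °C control.

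PXA1 was the gene that rose at 46 °C 30 min, to 9.02 and 9.16, by 1.27 ± 0.07 from the mean of both controls (adjusted p = 5.85e-17). It was 1.88 above the 42 °C control and 0.66 above the 37 °C control, the latter under the threshold. ANT1, PEX14 and PEX18, the other genes called lower at 30 min (-1.22, -1.07 and -1.10), lost their calls after quantile normalisation (-0.85, -0.68 and -0.58). PEX14 was also lost without 46 °C 30 min replicate 2 (-0.93), and PEX18 was below the floor. Between 10 and 30 min, within the batch, limma called 0 of 36, against 0.239% of all genes in either direction, with 14 higher and 8 lower at an unadjusted p under 0.05.

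Genes of the same pathway outside the 36 gave mixed directions. Of 16 enzymes of fatty acid use and the glyoxylate cycle, 5 rose and 2 fell at 37 °C 15 min, with a median change of 0.41, where 15.3% of all genes were higher and 14.3% lower. Of the same 16, 6 rose and 1 fell at 42 °C 40 min, with a median of 0.68, against 23.3% and 22.4% of all genes. CRC1, the mitochondrial carnitine carrier that takes up acetyl units made in peroxisomes, rose by 3.98 ± 0.14 and 2.82 ± 0.17 at these times, and CAT2, a carnitine acetyltransferase, by 1.99 ± 0.08 and 2.83 ± 0.10. FAA1 and FAA4, which encode acyl-CoA synthetases of long-chain fatty acids, parted: FAA1 rose by 1.87 ± 0.06 and 2.30 ± 0.07 while FAA4 fell by 2.41 ± 0.08 and 2.10 ± 0.10.

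CTA1, the peroxisomal catalase that breaks down the peroxide made by acyl-CoA oxidase, had opposite calls at both temperatures. At 37 °C it fell by 1.12 ± 0.10 at 15 min and 2.29 ± 0.10 at 40 min, and at 42 °C it rose by 2.05 ± 0.12 at 5 min and 2.01 ± 0.12 at 40 min. The difference at 40 min was 4.30 ± 0.15 (adjusted p = 9.54e-22).

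Among 10 regulators of oleate-induced and glucose-repressed genes, 1 rose and 1 fell at 37 °C 15 min (15.3% of all genes higher, 14.3% lower), and 1 rose at 42 °C 40 min (23.3% of all genes higher), shares that are not above those of all genes. ADR1, the activator of many peroxisomal genes, rose by 2.23 ± 0.11 and 3.08 ± 0.14, and MIG2, a glucose repressor, fell by 3.16 ± 0.17 at 37 °C 15 min. OAF1 and PIP2, the oleate-responsive pair, lay at 0.33 and 0.55 at 37 °C 15 min and at 0.25 and 0.63 at 42 °C 40 min, and were not called. The highest adjusted p of limma among the rises and falls named in these lists was 3.23e-12, for CTA1 at 37 °C 15 min.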

How the data were processed

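The authors deposited log2 intensities, 1 per probe set and array, summarised with RMA through affy, per the submitters' processing notes; neither versions nor a genome build are given in the sources used. RMA scales arrays to each other, so a global change in mRNA is not seen, and changes near background are compressed. Array medians were 10.20 to 10.26 for the 37 °C batches, 10.12 to 10.20 for the 42 °C batches and 9.85 to 9.86 at 46 °C, and these were treated as 3 sets that may have been normalised separately. Of 5900 probe sets on 45 arrays, 5498 carried 1 gene, 12 symbols were updated through the R64 RefSeq table, and the brightest probe set stood for each of 47 genes with several. The floor is the 95th percentile of 29 probe sets without a target, which include those of LEU2, MET17 and URA3. A mean per group was fitted to 41 arrays in 16 groups with lmFit and eBayes of limma 3.58.1 in R 4.3.3, leaving 25 residual degrees of freedom, with two-sided tests and Benjamini-Hochberg adjustment over all genes of a comparison; the code was tested on simulated data. Each time was set against the control of its batch, 37 °C 80 min against that of the 37 °C batch and 46 °C against the mean of both. Arrays were not paired by replicate number in the main fit. The members and lists were chosen with earlier results of these data known. Any of the 36 genes could be named, and of other lists at most 4 called genes per comparison, or any gene of a list of 10 or fewer. Protein and promoter sequences were not used here.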

Additional observations from a re-analysis of the deposited data

Results flagged for a closer look

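The tested difference between the 42 and 37 °C changes passed the threshold for the following genes, on the log2 scale and by limma. At 5 min it was 1.08 for PXA1. At 10 min it was 1.25 for PXA1, -1.36 for POX1 and -1.01 for PEX17. At 40 min it was 2.31 for FOX2, 2.00 for PXA2, 1.93 for PXA1, 1.56 for PEX10, 1.40 for PEX29, 1.35 for PEX2 and 1.34 for PEX27, and -1.03 for POX1 and -1.02 for PEX25. Both POX1 values are fitted from means below the floor in both controls and at 42 °C, so the size of these differences was not measured. The controls of both batches differed in the same genes, by 1.51 for FOX2 and 1.21 for PXA1, and the part of this offset was not tested. The PXA1 means at 42 and 37 °C were 8.54 and 8.67 at 5 min and 9.63 and 9.59 at 10 min.

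The 4 arrays labelled 42 °C 1 and 80 min were used in no comparison. Against the control of the 42 °C batch, 12 of the 36 genes were at least 2-fold higher on 1 min replicate 2 and 13 on 80 min replicate 1, with 3 at least 2-fold lower on each. Over all 5449 genes, 1485 and 1495 were at least 2-fold higher on these arrays and 1281 and 1306 at least 2-fold lower. On 1 min replicate 1 and 80 min replicate 2, 0 of 36 passed in either direction. Of all genes, 113 and 153 were higher and 12 and 37 lower there by the same measure. Replicates of the same label therefore stood apart. PXA2 read 10.08 and 9.95 on the first pair of arrays and 7.10 and 7.16 on the second, and FOX2 10.70 and 10.73 against 7.74 and 7.92.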

How the results depend on the processing

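All 77 called changes of the 36 genes kept their direction under every alternative run. They also kept their calls with an intensity trend, a fit of only the groups compared, and the replicate block. A floor filter and averaged probe sets ended no call either, but they left the values of the 36 genes unchanged. The filter kept all 36, and each has 1 probe set. Same-numbered arrays correlated at -0.29 to 0.58 in their deviations, and in 1 of the 8 comparisons with 3 pairs was every pair above 0.1. With so few arrays this does not settle whether the numbers pair them. The fit with the block called 13 genes at 37 °C 15 min and 12 at 42 °C 40 min, as without it. Quantile normalisation of all arrays ended 13 calls and gave 1 called gene at 37 °C 80 min, 0 differences at 5 min and 3 at 46 °C 30 min. With all 45 arrays 2 calls ended, PXA1 in the 5 min difference, which left 0 there, and PXA2 between 15 and 40 min at 37 °C (adjusted p = 0.057 by limma). The control of the 42 °C batch gave 6 called genes at 37 °C 80 min. Leaving out single arrays ended 9 of the 77 calls in 21 of 482 recomputed values, and gave 1 to 2 called genes at 42 °C 5 min, with 2 without control replicate 2 or 5 min replicate 2.

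Without a minimum change limma called 4, 13, 26, 26, 30, 31, 26 and 24 of 36 genes at 37 °C (1 to 80 min), 22, 27, 29 and 30 at 42 °C (3 to 40 min), 9, 10, 25 and 31 in the differences, 30 and 31 at 46 °C, 20 between the 46 °C times and 34 between 37 °C 15 and 40 min. Calls without a minimum change were not counted over all genes, so no share of all genes can be set beside these counts. They do not show that the 36 genes respond more than others. The low signal of POX1, PEX18 and POT1 limits their folds, and 46 °C values carry an unknown batch offset.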

Other observations

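Of 7 genes of other proteins that can reside in peroxisomes, 3 rose at 37 °C 15 min and 4 at 42 °C 40 min, with medians of 0.99 and 1.28, where 15.3% and 23.3% of all genes were higher. PNC1, a nicotinamidase, rose by 2.81 ± 0.05 and 4.78 ± 0.07, and GPD1, a glycerol-3-phosphate dehydrogenase, by 2.36 ± 0.08 and 2.96 ± 0.10. PCD1, a pyrophosphatase of coenzyme A derivatives, rose by 2.13 ± 0.08 at 37 °C 15 min, and LYS1, the last enzyme of lysine synthesis, by 2.13 ± 0.07 at 42 °C 40 min.

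Genes of peroxisome fission, inheritance and degradation were mostly not called. Of 9, 1 rose at 37 °C 15 min and 2 rose at 42 °C 40 min. Of all genes, 15.3% and 23.3% were higher at these times, so neither share was above that of all genes. ATG36, the receptor that marks peroxisomes for autophagy, rose by 2.33 ± 0.09 and 3.22 ± 0.11, and ATG11, its partner, by 1.14 ± 0.07 at 42 °C 40 min. INP2, which links peroxisomes to the motor that carries them into the bud, fell by 1.54 ± 0.09 at 42 °C 10 min (adjusted p = 3.51e-16).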
